A study of Mus musculus with 6 samples.

Results

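The genes described here are Trp53, which encodes the transcription factor p53, and a set of its regulators and direct targets, namely Mdm2, Mdm4, Cdkn1a, Ccng1, Bax, Bbc3, Phlda3, Zmat3 and Trp53inp1. They were taken by symbol from a table of gene expression in mouse cortex at E18.5, which makes 10 of 17348 genes, by a rule that uses no measured value, although earlier results of these data were known when they were listed. The question was whether transcripts of the p53 pathway, which respond to ribosomal, nucleolar and DNA damage stress, differed in cortex without Ybx1, a cold-shock RNA-binding protein that recognises methylated cytosines in mRNA. RNA-seq was performed on 3 control libraries, labelled WT and Ctrl, and on 3 libraries of Ybx1 conditional knockout (cKO) cortex. The cKO embryos carried Nestin-Cre together with Ybx1 fl/fl alleles, in which exons 3 to 8 are floxed and which were made in C57BL/6J mice. Controls are described both as Ybx1 fl/fl embryos without Cre and, for the sequencing, as wild type littermates. Nestin-Cre drives recombination in neural progenitors and the cells they produce, so that vessels, blood cells and microglia of the cKO cortex keep the gene. Sources used here do not say that any embryos were pooled, and each library is treated as a separate replicate.

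p53 is made continuously and is held at a low level by Mdm2, a ubiquitin ligase that marks it for degradation, and by the related protein Mdm4, which masks its activation domain. When ribosome assembly fails, free ribosomal proteins bind Mdm2, p53 accumulates without any need for more Trp53 mRNA, and genes with p53 sites are transcribed, among them those for cell cycle arrest (Cdkn1a, Ccng1), for cell death (Bax, Bbc3, Phlda3) and for feedback (Mdm2 itself). In the developing cortex, p53 activation in progenitors is known for arrest, premature differentiation and apoptosis, and the level of the target mRNAs, rather than that of Trp53 mRNA, is the usual transcript readout of its activity.

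The sequence that ties the targets to p53 is a pair of half-sites of 10 bases each, and the promoter windows of the members are shown for that reason. RefSeq promoter windows of GRCm38.p6, from 250 bases before to 50 bases after a transcription start, were held for 8 of the 10 members in 12 windows, without an entry for Zmat3 and Trp53inp1. The p53 half-site consensus, which is its own reverse complement and was therefore read on both strands at once, was matched exactly in 5 of these 12 windows and in 8.36% of all 32851 windows. A full site was taken as 2 half-sites in which the C and the G of the core are kept, with at most 2 mismatches in all, core A or T positions included, and at most 13 bases between them. Full sites were found in 3 of the 12 windows, those of Cdkn1a, Bax and Ccng1, and in 4.09% of all windows. Each of these 3 windows held 2 full sites. Only the first is shown, by fewest mismatches and then by fewest bases between the half-sites. In Cdkn1a, the lowercase bases directly after the capitals belong to the full site that is not marked. A full site overlaps the half-sites that compose it, and a match describes letters only. Capitals mark the match, with 15 flanking bases on each side, on the strand of the gene.

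Cdkn1a, full site starting 73 bases upstream of the start with 0 mismatches and 12 bases between the half-sites, chr17:29090891-29090952 (+ strand): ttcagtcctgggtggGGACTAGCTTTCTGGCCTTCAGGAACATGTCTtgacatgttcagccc
Bax, full site starting 201 bases upstream with 2 mismatches, chr7:45467064-45467114 (- strand): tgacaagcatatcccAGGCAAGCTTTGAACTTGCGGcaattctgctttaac
Ccng1, full site starting 195 bases upstream with 1 mismatch, chr11:40755447-40755496 (- strand): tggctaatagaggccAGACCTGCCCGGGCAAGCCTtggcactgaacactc
Mdm2, half-site starting 186 bases upstream, chr10:117710920-117710959 (- strand): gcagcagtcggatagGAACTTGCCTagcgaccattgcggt
Trp53, half-site starting 75 bases upstream, chr11:69580269-69580308 (+ strand): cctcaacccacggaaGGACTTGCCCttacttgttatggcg

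No exact half-site was present in the windows of Mdm4, Phlda3 and Bbc3, nor in the second window of Cdkn1a, which says only that these letters are absent from these 300 bases. The established p53 element of Mdm2 lies outside such a window, within the first intron.

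Libraries held 15091951 to 16885451 estimated counts, so that 3 counts correspond to 0.178 to 0.199 CPM (counts scaled to a common library total after TMM), and 13570 genes with enough counts were tested. Ybx1 fell from 1089 ± 182 CPM in controls to 24.6 ± 0.519 CPM in cKO (SD, n = 3 each), which is 2.25% of the control level and a log2 fold change of -5.47 (adjusted p = 6.95e-07, the Benjamini-Hochberg adjusted p of edgeR's quasi-likelihood fit over all tested genes). The Y-linked gene Kdm5d, named after its values were seen, had 1116, 856 and 1112 counts in the controls and 0 counts in each cKO library, so that genotype and the sex of the embryos cannot be told apart. Markers of projection neurons and radial glia were abundant in every library, with summed TPM (the authors' length-scaled values) of 1796 to 2543 and 1467 to 2128 in controls, and choroid plexus markers summed to between 1.07 and 2.12 TPM over all libraries. Control replicate 2 stood apart. It lay outside the range of the other 5 libraries in 67.5% of all tested genes, against 18.0% to 43.5% for the other libraries. For the members, the differences below are also given without it.

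None of the 10 members differed between cKO and control cortex at an adjusted p under 0.05 (edgeR's quasi-likelihood test, Benjamini-Hochberg adjustment over 13570 genes), where 0.0737% of all tested genes did. DESeq2 and edgeR's exact test also called 0 of the 10. At an unadjusted p under 0.05 there was 1 member, Bbc3, which was lower in cKO, against 6.62% of all genes in either direction and 3.49% in that direction. Bbc3 was also the 1 member whose 3 control and 3 cKO values did not overlap, against 14.3% of all genes and 6.93% of all genes with all cKO values lower. Fitted changes of the members were above 0 in 5 and below 0 in 5, with a median log2 fold change of -0.00052, beside 0.00272 over all tested genes. With 3 libraries against 3, a two-sided exact permutation test of a single gene cannot give a p below 0.1.

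**Figure D1:**
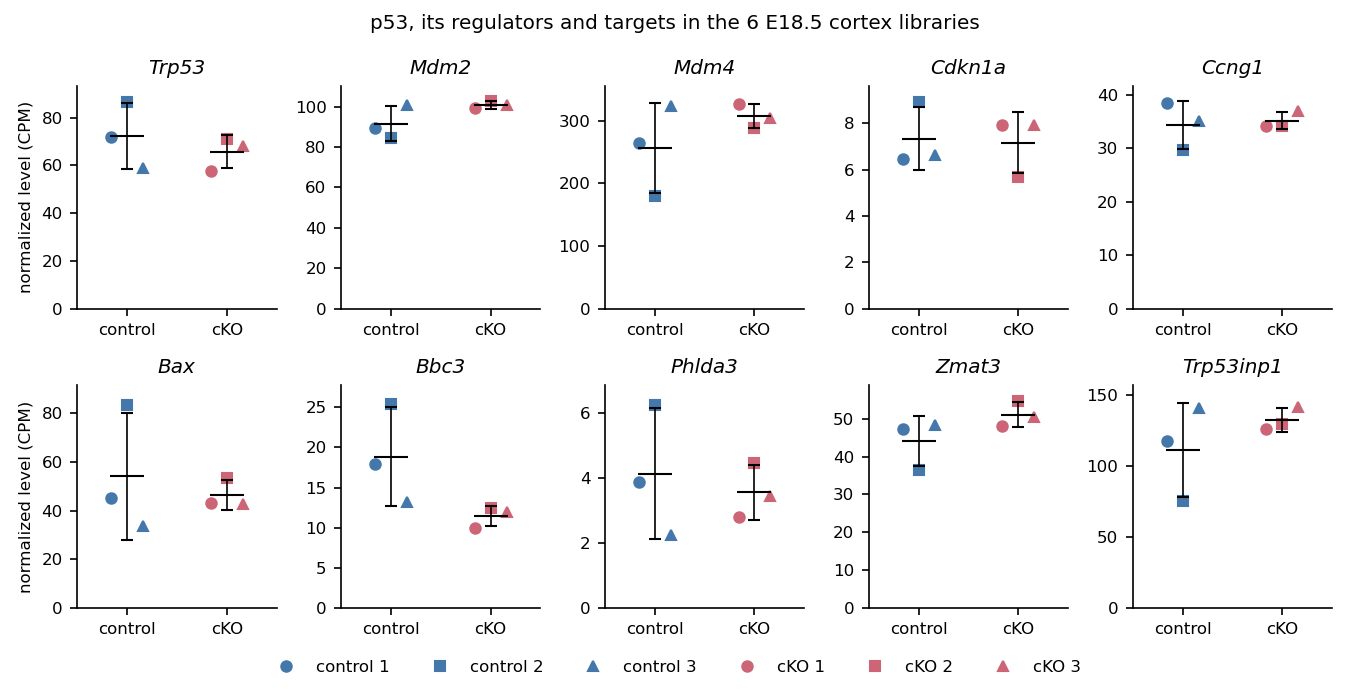
Normalized level (CPM, vertical axes starting at 0) of the 10 genes in each of the 3 control and 3 cKO libraries, with horizontal lines for group means and bars for SD. Control and cKO points overlap in 9 genes and are separate in Bbc3, while control replicate 2 (blue squares) is the highest or the lowest of the 6 points in 10 of 10 genes.

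Trp53 itself (chr11:69580359-69591873, + strand, GRCm38 with GENCODE M21 as are the positions below) was measured at 72, 86.5 and 58.8 CPM in control replicates 1, 2 and 3, and at 57.8, 71.1 and 68.1 CPM in cKO replicates 1, 2 and 3. The groups overlapped, control replicate 2 being the highest library and cKO replicate 1 the lowest. Means were 72.4 ± 13.9 CPM in controls and 65.6 ± 6.98 CPM in cKO, a log2 fold change of -0.14 ± 0.154 (SE, adjusted p = 0.898) with a 95% interval of -0.49 to 0.21. Without control replicate 2 the log2 fold change was 0.00374. In a bulk sample, fewer cells that make a transcript and less of it per cell cannot be told apart, for Trp53 as for the other genes.

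Of the regulators, Mdm2 (chr10:117688875-117710758, - strand) was at 89.5, 84.3 and 101 CPM in the controls and at 99.1, 103 and 101 CPM in cKO cortex. The cKO libraries were close together, around the highest control. The means of 91.8 ± 8.8 and 101 ± 1.78 CPM gave a log2 fold change of 0.14 ± 0.107 (adjusted p = 0.857) with an interval of -0.10 to 0.38, so that the upper bound is 1.3-fold. It was 0.0808 without control replicate 2 and 0.22 without control replicate 3. Estimated counts of Mdm2 were not whole in 4 of 6 libraries, which means that some of its reads were shared with other features. Mdm4 (chr1:132959484-133030561, - strand) was at 265, 180 and 323 CPM in controls and at 327, 289 and 305 CPM in cKO. Control replicate 2 was the lowest library, and the cKO values lay within or just above the range of the controls. The log2 fold change was 0.26 ± 0.192 (means 256 ± 72.2 and 307 ± 18.7 CPM, adjusted p = 0.854), with an interval of -0.17 to 0.70, and it was 0.0639 without control replicate 2 and 0.47 without control replicate 3. An annotated pseudogene, Gm29257, lies antisense within the Mdm4 locus and was not analysed here.

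Among the targets that act on the cell cycle, Cdkn1a, which encodes the cyclin-dependent kinase inhibitor p21 and is the best known p53 target, was low (chr17:29090976-29100727, + strand). Its counts were 103, 152 and 97 in controls and 128, 90 and 124 in cKO, or 6.46, 8.9 and 6.65 CPM against 7.92, 5.66 and 7.92 CPM. The highest library was a control and the lowest a cKO, and the other 4 lay between them. Means of 7.33 ± 1.36 and 7.17 ± 1.3 CPM differed by a log2 fold change of -0.0351 ± 0.206 (adjusted p = 0.983), and the interval of -0.50 to 0.43 has an upper bound of 1.35-fold. The sign of this difference turned under 5 of 16 alternative settings, with values from -0.12 to 0.13, the highest without control replicate 2. The unclassified antisense gene AC167363.2 overlaps Cdkn1a and was not analysed here. Ccng1, the cyclin G1 gene, whose product recruits a phosphatase to Mdm2 (chr11:40748552-40755311, - strand), was at 38.4, 29.6 and 35.1 CPM in controls and at 34.2, 34.2 and 37 CPM in cKO. All cKO values lay inside the control range. The log2 fold change was 0.0341 ± 0.125 (means 34.3 ± 4.45 and 35.1 ± 1.63 CPM, adjusted p = 0.967, interval -0.25 to 0.32), and it was -0.0639 without control replicate 2.

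Of the targets that act in cell death, Bbc3 encodes Puma, a protein with a BH3 domain alone that frees the mitochondrial death effectors (chr7:16308393-16318205, + strand). It had 285, 434 and 193 counts in controls and 162, 197 and 187 counts in cKO, which are 17.9, 25.4 and 13.2 CPM against 10, 12.4 and 11.9 CPM. All 3 cKO libraries were below all 3 controls, with a gap of less than 1 CPM between the lowest control and the highest cKO library. The mean of 11.5 ± 1.26 CPM in cKO was 60.8% of the control mean of 18.8 ± 6.15 CPM, with a log2 fold change of -0.72 ± 0.229 and an interval of -1.24 to -0.20. The unadjusted p was 0.0119 and the adjusted p 0.554 in edgeR's quasi-likelihood test, so that the difference did not pass the test over all genes. Bbc3 was lower in cKO under all 16 alternative settings, by log2 values of -0.92 to -0.44, with adjusted p between 0.149 and 1 and unadjusted p between 0.000849 and 0.0507, the last without cKO replicate 1. The smallest of these differences, -0.44 (unadjusted p = 0.0196, adjusted p = 0.299), was the one without control replicate 2, the library with the highest value.

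Bax, the pore-forming effector of mitochondrial apoptosis (chr7:45461697-45466898, - strand), was at 45, 83.6 and 33.7 CPM in controls and at 43.1, 53.5 and 42.6 CPM in cKO. Control replicate 2 was far above the other libraries, and the cKO values lay between the controls. The log2 fold change of -0.22 ± 0.288 (means 54.1 ± 26.1 and 46.4 ± 6.16 CPM, adjusted p = 0.911, interval -0.88 to 0.43) turned to 0.24 without control replicate 2. Gm45808, an annotated gene on the same strand that overlaps Bax, was not analysed here. Phlda3, which encodes a pleckstrin homology protein that restrains Akt signalling (chr1:135766119-135769136, + strand), had 62, 107 and 33 counts in controls and 45, 71 and 54 counts in cKO, or 3.89, 6.27 and 2.26 CPM against 2.79, 4.47 and 3.45 CPM. All cKO values lay inside the wide control range. The log2 fold change was -0.22 ± 0.352 (means 4.14 ± 2.01 and 3.57 ± 0.848 CPM, adjusted p = 0.921, interval -1.02 to 0.57) and 0.21 without control replicate 2.

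The remaining targets act on RNA and on stress responses. Zmat3, a zinc finger RNA-binding protein (chr3:32334792-32366014, - strand), was at 47.3, 36.4 and 48.4 CPM in controls and at 48.1, 54.6 and 50.4 CPM in cKO. Control replicate 2 was the lowest library, and cKO replicates 2 and 3 were above all controls. The log2 fold change was 0.21 ± 0.133 (means 44 ± 6.66 and 51 ± 3.32 CPM, adjusted p = 0.827, interval -0.0878 to 0.52) and 0.093 without control replicate 2. Trp53inp1, whose product promotes p53-dependent death and autophagy (chr4:11156431-11174379, + strand), was at 118, 75.7 and 141 CPM in controls and at 126, 130 and 142 CPM in cKO. Again control replicate 2 was the lowest library, while control replicate 3 and cKO replicate 3 were nearly equal. The log2 fold change was 0.25 ± 0.199 (means 112 ± 33 and 132 ± 8.12 CPM, adjusted p = 0.86, interval -0.20 to 0.70), 0.032 without control replicate 2 and 0.45 without control replicate 3.

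Upper bounds of the 95% intervals were between 0.87-fold, for Bbc3, and 1.62-fold, for Mdm4 and Trp53inp1. A rise of 2-fold was thus outside the interval in 10 of 10 members, Cdkn1a included. These intervals are from the fit with control replicate 2 included, and none is given without it. A fall of 2-fold was outside it in 8 of 10, the exceptions being Bbc3 and Phlda3, with lower bounds of 0.424-fold and 0.493-fold. Among the 10 members the SE was lowest for Mdm2, with an interval of 0.93-fold to 1.3-fold, and highest for Phlda3, with 0.493-fold to 1.49-fold.

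**Figure D2:**
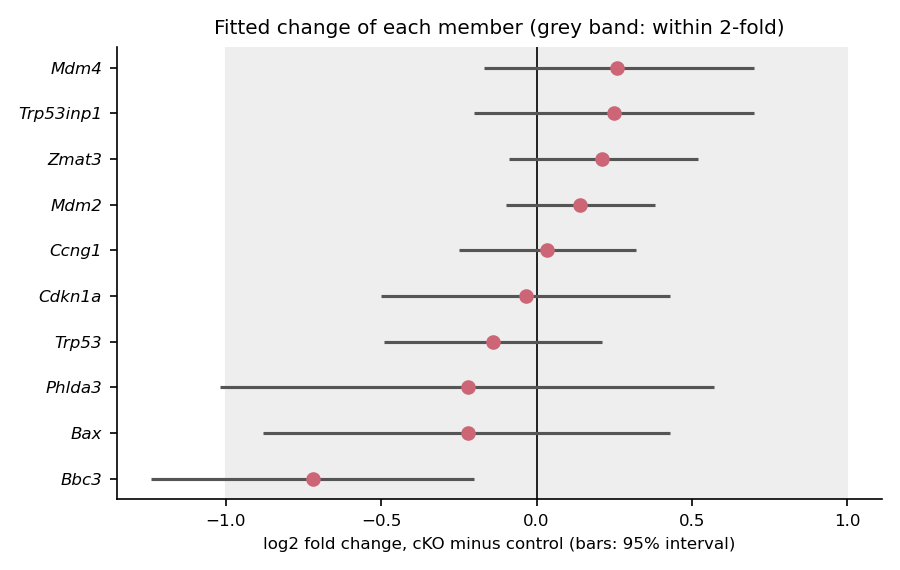
Fitted log2 fold change (cKO minus control, horizontal axis) of the 10 genes, ordered by value, with 95% intervals as bars and a grey band for changes within 2-fold. The interval of Bbc3, -1.24 to -0.20, is the one that does not include 0, and no bar reaches the upper edge of the band.

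The authors' TPM values, which are scaled by transcript length and allow genes to be ordered by level, placed Bax first, at 197 ± 72.9 TPM in controls, and Trp53 next, at 103 ± 10.9 TPM. Mdm4 (80.7 ± 28.4), Mdm2 (67 ± 9.9), Trp53inp1 (47.5 ± 17.3), Bbc3 (25.5 ± 6.51) and Ccng1 (23.1 ± 4.61 TPM) followed, and neighbours from Trp53 to Ccng1 overlapped in their control ranges. Zmat3, at 12.6 ± 2.87 TPM, was below Ccng1 in every control, and it overlapped Cdkn1a at 9.61 ± 0.905 TPM, which overlapped Phlda3 at 7.35 ± 2.92 TPM. In cKO cortex Trp53 was at 104 ± 10.7 TPM and Cdkn1a at 10.5 ± 1.94 TPM. Trp53 and Mdm4 (105 ± 6.92 TPM), Bbc3 and Ccng1, and Cdkn1a and Phlda3 overlapped there, while the ranges of the other neighbours in the order were separate.

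On this TPM scale the groups did not overlap in 3 members, with Bbc3 lower and Mdm2 and Zmat3 higher in cKO, where 21.6% of all tested genes did not overlap in either direction. The scale itself moved, since the median log2 TPM ratio of all tested genes was 0.14. Relative to that median, the log2 differences in TPM were -0.68 for Bbc3, 0.13 for Mdm2 and 0.20 for Zmat3, close to the fitted values.

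Spread between controls exceeded that between cKO libraries in 10 of 10 members, as in 77.1% of all genes, with a median coefficient of variation of 23.7% in controls and 8.56% in cKO (16% and 7.48% over all genes). Control replicate 2 lay outside the range of the other 5 libraries in 10 of 10 members. It was the highest library for Trp53, Cdkn1a, Bax, Bbc3 and Phlda3 and the lowest for Mdm2, Mdm4, Ccng1, Zmat3 and Trp53inp1. These sets are also the 5 shorter and the 5 longer transcripts by the length that count and FPKM imply. For Bax, at 565 bases, the log2 difference of control replicate 2 from the mean of the other controls was 1.10. Phlda3 (1164 bases) had 1.08, Bbc3 (1539 bases) 0.73, Cdkn1a (1610 bases) 0.44 and Trp53 (1489 bases) 0.41. The longer transcripts had values below 0, from -0.18 for Mdm2 (2933 bases) to -0.77 for Trp53inp1 (5098 bases), with -0.70 for Mdm4 (6868 bases). Across genes, which are not independent replicates, Pearson's r between log2 length and this difference was -0.94 over the 10 members and -0.60 over 13565 genes of the same libraries. Control replicate 2 also had an FPKM sum of 522819, against 424951 to 446619 in the other libraries. After each library was corrected for its trend on implied length, control replicate 2 was still above the other controls for Bax (0.58), Phlda3 (0.72) and Bbc3 (0.47) and below them for Trp53inp1 (-0.48), while the other 6 members were between -0.28, for Ccng1, and 0.20, for Cdkn1a. Bbc3 then had a log2 fold change of -0.64 (adjusted p = 0.174 in edgeR's quasi-likelihood test), with corrected values of 18.2, 22.1 and 14 CPM in controls and of 10.2, 12.6 and 12.3 CPM in cKO.

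**Figure D3:**
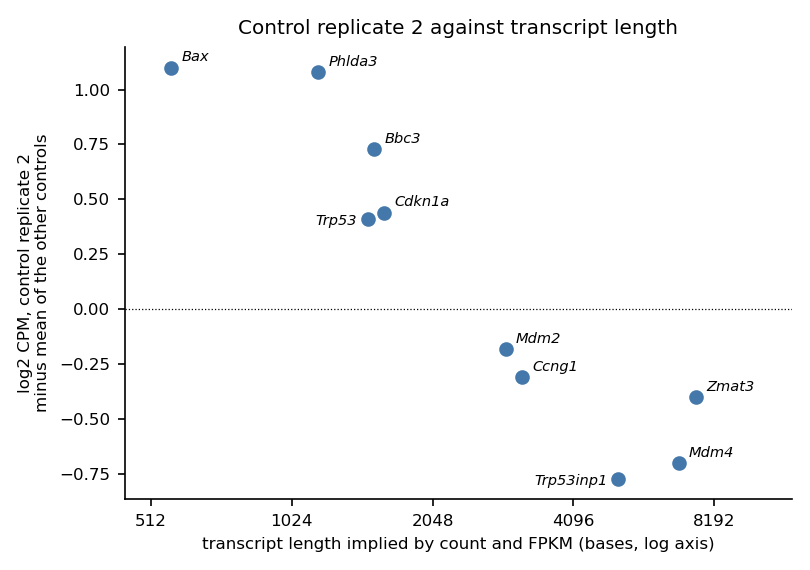
Log2 CPM of control replicate 2 minus the mean of the other controls (vertical axis) against the transcript length implied by count and FPKM (horizontal axis, bases, log scale), 1 point for each of the 10 genes. The 5 shortest transcripts lie above 0, up to 1.10 for Bax, and the 5 longest lie below it, down to -0.77 for Trp53inp1.

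Profiles over the 6 libraries were compared by the root mean square difference in centred log2 CPM. The genes most like Trp53 were Traf4 (0.0294), Git1 (0.0323) and Pter (0.0361), where the median over all tested genes was 0.264. The genes most like Cdkn1a were Pgf (0.0681), Ndufb2 (0.0714) and Avpi1 (0.078), against a median of 0.277.

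Other p53 targets were counted in 4 lists by function. Of 67 genes listed, 64 were tested, and 0 of these passed at an adjusted p under 0.05 with edgeR's quasi-likelihood test, with DESeq2 and with the exact test. At an unadjusted p under 0.05 there were 3, all lower in cKO, where 6.62% of all genes passed in either direction and 3.49% in that direction. Of the 64, 22 fitted changes were above 0 and 42 below, with a median log2 fold change of -0.0708. Without control replicate 2 this median was -0.0253. Control and cKO values were separate in 7 of these 64 genes, with 6 lower and 1 higher in cKO, beside 14.3% of all genes in either direction and 6.93% lower.

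Of 16 tested genes of cell cycle and growth control, 5 were above 0 and 11 below (median -0.0591). Psrc1, a microtubule-associated protein of the spindle, was at 11.3 ± 1.77 CPM in controls and 8.51 ± 0.316 CPM in cKO (log2 fold change -0.41, unadjusted p = 0.0311, adjusted p = 0.672), without overlap. Rprm, the Reprimo gene of cell cycle arrest, was at -0.21 and Sfn, the gene of a 14-3-3 protein, at 0.36 on the log2 scale (adjusted p = 0.857 and 0.862). Gdf15, a secreted stress signal induced by p53, was not tested, with at most 1 count in any library.

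Of 14 tested genes of cell death, 4 were above 0 and 10 below, with a median of -0.16. Aen, an apoptosis-enhancing nuclease, was at 53.7 ± 6.03 CPM in controls and 41.7 ± 4.6 CPM in cKO (log2 fold change -0.37, unadjusted p = 0.0201, adjusted p = 0.608), without overlap. Siva1, an inducer of apoptosis, had -0.44 (adjusted p = 0.796). The decoy death receptor gene Tnfrsf23 had 0.87 (adjusted p = 0.796), from 1.1 ± 0.401 CPM in controls and 2 ± 1.16 CPM in cKO, where cKO replicate 1 was at 3.34 CPM and the others at 1.26 and 1.4 CPM. Pmaip1, which encodes the BH3 protein Noxa and was named after its values were seen, had -0.27 with an unadjusted p of 0.411. The death receptor gene Fas was not tested, with 3 to 13 counts in each library.

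Genes of DNA repair had values near 0, with 4 of 10 tested genes above it and 6 below and a median of -0.0196. Fancc of the Fanconi anaemia core complex had -0.24, Rrm2b, a ribonucleotide reductase subunit induced by p53, 0.20 and Polk, a translesion polymerase, 0.20 (adjusted p = 0.854, 0.862 and 0.862). The list of metabolism, autophagy and other targets had 9 of 24 genes above 0 and 15 below, with a median of -0.0765. Trim32, a ubiquitin ligase known in neural progenitor differentiation, was at 130, 138 and 118 CPM in controls and 97.2, 101 and 103 CPM in cKO. The groups did not overlap, and the log2 fold change of -0.36 had an unadjusted p of 0.00698 and an adjusted p of 0.481. Crip2 had -0.44 (adjusted p = 0.764) and Wrap53, the opposite-strand neighbour of Trp53, -0.34 (adjusted p = 0.789).

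**Figure D4:**
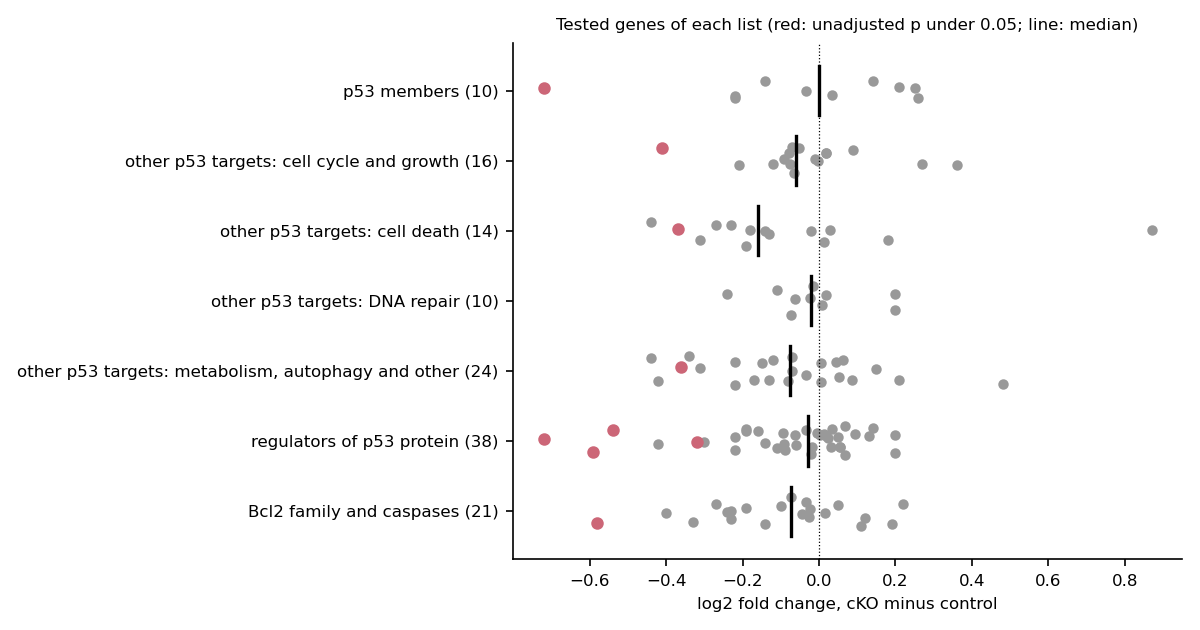
Fitted log2 fold changes (cKO minus control, horizontal axis) of the tested genes of each list, 1 point per gene, with the median as a vertical line, red for an unadjusted p under 0.05 and the number of genes in brackets. Red points are all below 0, and the medians lie between -0.16, for the other targets of cell death, and -0.00052, for the members.

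Regulators of p53 protein were tested in 38 of 40 listed genes, of which 16 were above 0 and 22 below (median -0.0275). None passed at an adjusted p under 0.05 in edgeR's quasi-likelihood test, and 4 of 38 had an unadjusted p under 0.05, all lower in cKO, beside 6.62% of all genes in either direction and 3.49% lower. Nop53, a nucleolar protein of ribosome assembly that binds ribosomal protein L11, was at 99.6, 139 and 92.1 CPM in controls and 61.2, 73 and 66.2 CPM in cKO. Every cKO library was below every control, and the log2 fold change was -0.72 ± 0.163 (adjusted p = 0.345). Rpl5, a ribosomal protein that binds Mdm2 in the nucleolar stress response, was at 596, 766 and 626 CPM in controls and 456, 437 and 473 CPM in cKO, again without overlap, with -0.54 ± 0.126 (adjusted p = 0.348). Rps7, another Mdm2-binding ribosomal protein, had -0.59 ± 0.164 (adjusted p = 0.465), from 595 ± 138 to 394 ± 16.5 CPM.

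Nop53 and Rpl5 were called with DESeq2, with the exact test and without control replicate 2. Over the whole table these settings called 98, 97 and 122 genes, beside 10 with edgeR's quasi-likelihood test on all libraries. Nop53, Rpl5 and Rps7 were called after the implied length correction, an alternative chosen after seeing the data, which called 106 genes over the whole table. The remaining ribosomal proteins of the list, named after their values were seen, were Rpl11 at -0.42 (adjusted p = 0.777) and Rpl23 at -0.32 (adjusted p = 0.676). All 4 were thus below 0, with a median of -0.48, and their summed TPM was 4610 to 5483 in controls and 3677 to 4027 in cKO, without overlap. The other 34 regulators had a median of -0.0116. Cdkn2a, whose product Arf inhibits Mdm2, had at most 1 count in any library and was not tested, and Trp53rk was not analysed here. Of the p53 family, Trp73 had a log2 fold change of -0.26 (adjusted p = 0.838), and Trp63, with at most 6 counts in a library, was not tested.

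The Bcl2 family and the caspases carry out the death programme that Bax and Bbc3 belong to, and 21 of 22 listed genes were tested. None passed at an adjusted p under 0.05 with edgeR's quasi-likelihood test, with DESeq2 or with the exact test, and 1 of 21 had an unadjusted p under 0.05, beside 6.62% of all genes. Fitted changes were above 0 in 6 and below 0 in 15, with a median of -0.0736, and the groups did not overlap in 4 of 21, all lower in cKO, beside 14.3% of all genes in either direction and 6.93% lower. Hrk, like Bbc3 a gene for a protein with a BH3 domain alone, was at 7.34, 6.44 and 9.66 CPM in controls and 4.21, 5.73 and 5.75 CPM in cKO. It did not overlap, with a log2 fold change of -0.58 (unadjusted p = 0.0256, adjusted p = 0.643). Bok, a relative of Bax, had -0.40 (adjusted p = 0.795).

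Markers of cell types were set beside these values as summed TPM. Proliferation markers were at 460 to 522 in controls and 477 to 527 in cKO, with 7 of 8 fitted changes below 0 and 0 called, and intermediate progenitor markers at 323 to 384 and 357 to 426. Sums did not overlap, with cKO higher, for interneurons (904 to 977 against 998 to 1462, 4 of 8 genes above 0 and 4 below), for endothelial cells and pericytes (236 to 275 against 279 to 342, 7 of 8 genes above 0 and 0 called) and for meninges (9.26 to 13.1 against 13.2 to 16.9). Each of these gaps was narrower than the shift of the TPM scale given above. The fit does not carry that shift, with a median log2 fold change of 0.00272 over all tested genes. There, medians were 0.0666 for interneurons, 0.24 for endothelial cells and pericytes and 0.39 for meninges. All 5 tested meningeal genes were above 0, with 0 called. In edgeR's quasi-likelihood test, 2 of 8 endothelial and pericyte genes had an unadjusted p under 0.05, beside 6.62% of all genes. These were higher in cKO. In cKO, projection neuron markers were at 2048 to 2325 and radial glia markers at 1652 to 1992, within the control ranges given above. Fitted medians of these markers were -0.0928 and -0.0939, with 6 of 8 and 5 of 8 genes below 0 and 0 called. Microglial markers were at 60.6 to 79.3 and 78.7 to 85.4, erythroid markers at 7581 to 8410 and 8000 to 9446, and oligodendrocyte precursor markers at 39.9 to 56.4 and 37.8 to 63.6. No marker was at 0 TPM in all libraries. Whether these cell types, the sex of the embryos or the length trend of control replicate 2 had a part in the values of Bbc3 or of any other member was not tested.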

How the data were processed

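RNA-seq of polyadenylated RNA from E18.5 cortex (DNBSEQ) gave 3 control and 3 cKO libraries, grouped by genotype label. The authors deposited estimated counts, TPM and FPKM values for 17348 genes. The deposited estimated counts are not normalized, whereas the authors divided TPM and FPKM values by transcript length and sequencing depth. Their average columns were not used, and 0 per-sample columns were left out. The submitters' processing notes name HISAT2 2.2.1, Bowtie2 2.4.5 and RSEM 1.3.1 with GRCm38 (mm10). Annotation, strandedness and counting settings are not given in the sources used here. Of the estimated counts, 89.4% were whole (within 1e-06 of a whole number), and all were rounded.

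The comparison of cKO with control used the quasi-likelihood test of edgeR 4.0.16 in R 4.3.3, after filterByExpr and TMM scaling, with p-values adjusted by Benjamini-Hochberg over 13570 genes. The F statistic and the fold change gave the SEs and intervals. The common biological coefficient of variation was 0.147. Intervals for counting error alone would be too narrow, and the labels do not say that replicates are separate litters, so p-values measure the spread between these libraries. No pair of replicates agreed within sampling noise (chi-square per degree of freedom 3.41 to 62.4). The scripts were tested on simulated counts of 13504 genes. At an adjusted p under 0.05, edgeR's quasi-likelihood test found 31.3% of 67 genes changed 1.5-fold. It found 91.5% of 71 genes changed 2-fold and 100% of 62 changed 4-fold, with 10 false calls in the whole run. Most changes of 1.5-fold were thus missed in the simulation. Changes were put only into genes above a set mean level, which Phlda3 did not reach. Noise was drawn separately for each gene, without the length trend of control replicate 2. The shares found are therefore not those of the members.

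The members and lists were chosen with earlier results of these data known. Beyond the members, genes were named by rule: in each list the 3 with the lowest p, and the 3 most like Trp53 and Cdkn1a (pseudocount 0.1 CPM), of which 1 gene is not reported here. Other genes named are said to have been named after their values were seen or were named because they were not tested. Alternatives were DESeq2 1.42.0, edgeR's exact test, RLE scaling, TMM without ribosomal protein genes, other filters on low counts (none, or CPM above 1 in 2 libraries), the replicate block, a length and GC correction (mgcv 1.9.3, 96.7% of genes with a value in GENCODE M21), each library left out and, chosen after seeing the data, a correction for implied length. Python 3.11.15 with matplotlib 3.10.9 drew the figures.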

Additional observations from a re-analysis of the deposited data

How the results depend on the processing

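No member, other p53 target, Bcl2 family or caspase gene was called under any of the 16 alternatives. Genes called over the whole table, 10 in the fit described, were 98 with DESeq2, 97 in the exact test, 27 after the length and GC correction, 27 with that correction and the replicate block, 106 with the implied length correction (chosen after seeing the data) and 8 to 122 with a library left out, the highest without control replicate 2 and 19 without control replicate 3. Regulators of p53 called, 0 in the fit described, were 2 with DESeq2, 2 with the exact test, 1 with the replicate block and length and GC correction, 3 with the implied length correction and 0 to 2 with a library left out.

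Members with an unadjusted p under 0.05 were 0 (without cKO replicate 1) to 3 (Bbc3, Mdm4 and Trp53inp1, without control replicate 3), and members without overlap were 2 with the length and GC correction, Bbc3 lower and Trp53inp1 higher (17.8% of all genes). With a library left out, the median of the members was -0.0592 to 0.082, Trp53 was -0.27 to 0.00374, Cdkn1a -0.12 to 0.13, Ccng1 -0.0639 to 0.12, Bax -0.47 to 0.24 and Phlda3 -0.51 to 0.21. Cdkn1a was 0.0413 with the length and GC correction, 0.0292 with the replicate block added and 0.0309 with the implied length correction. Over these 3 corrections Bax was -0.0755 to -0.00653, Phlda3 -0.096 to -0.0641, Zmat3 0.0734 to 0.0918 and Trp53 -0.10 to -0.0674. The cause of these shifts was not tested.

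Whether replicate numbers pair the libraries is not settled, since no label says so. Same-numbered libraries had low correlations of deviations, 0.0884, 0.0615 and 0.23, but each correlated best with its own number. The series describes sequencing in batches without assigning libraries. With the replicate block, 11 genes were called, 0 of them members, and Bbc3 was at -0.68 (adjusted p = 0.385 in edgeR's quasi-likelihood test). Counts were lowest for Phlda3 (33 to 107) and Cdkn1a (90 to 152).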
